A study of Mus musculus with 8 samples.

Results

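The transcripts described here are the 4 products of the Dlk1-Meg3 imprinted domain that the deposited tables list: Dlk1, Meg3, Rian and Mirg. They are 4 of 18174 gene symbols in the tables, and they were taken by symbol. The cells were long-term hematopoietic stem cells (LT-HSC), read one by one, from the marrow of untreated male C57BL/6J mice aged 18 months. All cells were sorted as Lin-CD150+CD48-CD34-Kit+Sca1+ and then as Dlk1+ or Dlk1- by surface protein, and each sort has 4 libraries, numbered replicate 1 to 4. No label ties a library to an animal, and p-values here therefore measure the spread between libraries, which may be technical. The method, mCEL-Seq2, tags the 3′ end of each polyadenylated RNA with a well barcode and a unique molecular identifier (UMI), so that each UMI stands for 1 captured molecule.

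Dlk1+ cells were read from barcodes 1 to 96 and Dlk1- cells from barcodes 97 on, so barcode side and sort cannot be told apart. The same well barcodes recur in every library of a sort by design. Barcodes 17, 20 to 24 and 29 to 32 were left out, because transcripts also lay on them in libraries whose cells were sorted to the other side. With at least 1000 transcripts required, 220 Dlk1+ cells (86, 27, 26 and 81 in replicates 1 to 4) and 321 Dlk1- cells (96, 36, 95 and 94) were kept. Summed transcripts per library ranged from 39074 to 517559. Dlk1+ replicate 3 was shallow, with a median of 1300 transcripts per cell against 3421 to 5584 in the other libraries, and 4 of its cells reached 2000 UMIs. The HSC marker list had UMIs for 12 of 12 genes, at 1715 to 2984 counts per 1000000 (CPM) in the Dlk1+ and 2132 to 2738 CPM in the Dlk1- libraries. All 6 T cell markers were at 0. Of the endothelial markers 6 of 7 had UMIs (Cdh5 was at 0), at 228 to 538 CPM in the Dlk1+ and 226 to 308 CPM in the Dlk1- libraries, and of the stromal markers 10 of 11 did (Lum was at 0).

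Genomic imprinting is expression from the allele of 1 parent. In this domain the protein gene Dlk1 is expressed from the paternal allele, and the long non-coding RNAs Meg3, Rian and Mirg, which lie downstream of it in the same orientation, from the maternal allele. Dlk1 encodes a transmembrane protein related to the Notch ligands. Meg3, also called Gtl2, is a nuclear RNA with reported growth-restraining activity, Rian hosts box C/D small nucleolar RNAs, and Mirg hosts a large microRNA cluster. The maternal RNAs are often regarded as parts of 1 long transcription unit, and the domain has been linked to the maintenance of LT-HSC.

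The domain lies on chromosome 12 of the mouse build GRCm38, which is the build called mm10 in the submitters' processing notes. RefSeq places all 4 genes on the plus strand: Dlk1 at chr12:109452485-109463336, Meg3 at chr12:109540996-109571729, Rian at chr12:109603945-109661716 and Mirg at chr12:109734981-109749458. The gaps between neighbours are 77659 bases from Dlk1 to Meg3, 32215 from Meg3 to Rian and 73264 from Rian to Mirg. The 250 bases before the first RefSeq start of Meg3 (chr12:109540746-109540995, plus strand) are shown because Meg3 was the member with which Rian and Mirg were found. Capitals mark matches to 3 of 4 short motifs searched on both strands. The cAMP response element was searched as TGACGTCA, the box bound by nuclear factor Y as CCAAT, and the core promoter element bound by TBP as TATAAA, which matched on both strands in 1 overlapping run.
Meg3 upstream window: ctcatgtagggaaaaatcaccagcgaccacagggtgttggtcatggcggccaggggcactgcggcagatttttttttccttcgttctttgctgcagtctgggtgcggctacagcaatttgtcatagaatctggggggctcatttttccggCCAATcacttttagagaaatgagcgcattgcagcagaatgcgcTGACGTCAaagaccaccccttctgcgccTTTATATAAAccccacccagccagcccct
The match to the cAMP response element spans positions -57 to -50 and those to the TBP element lie between -29 and -20 from the start. Of the 32851 RefSeq upstream windows of 250 bases, 1.55% hold the cAMP response element, 12.4% the TBP element and 33.8% the CCAAT box. The fourth motif, the Sp1 box GGGCGG, is in 32.7%. The windows of Dlk1 and Rian held none of these letters (the start listed for Dlk1, and with it the window, lies inside its RefSeq gene span), and that of Mirg held the CCAAT box only. A second RefSeq start of Meg3 had no match either. CpG dinucleotides numbered 10 in the Meg3 window, 8 in that of Dlk1, 10 in that of Mirg and 0 in that of Rian, against a median of 6 over all windows. These matches are descriptions of the letters, not of bound sites.

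The maternal RNAs differ in the microRNAs annotated inside them, which 3′ tagging of polyadenylated RNA does not measure. RefSeq lists 3 mature microRNAs on the plus strand inside Meg3, 6 inside Rian and 19 inside Mirg. Examples of each host are shown with the seed, bases 2 to 8, in capitals: miR-770-5p of Meg3, miR-370-3p of Rian, and miR-410-3p, miR-453 and miR-496a-5p of Mirg. The last 2 share a seed, the only shared seed among the microRNAs inside Mirg, whose 19 mature forms have 18 different seeds.
miR-770-5p: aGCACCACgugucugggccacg
miR-370-3p: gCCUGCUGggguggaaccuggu
miR-410-3p: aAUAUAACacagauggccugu
miR-453: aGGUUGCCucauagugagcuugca
miR-496a-5p: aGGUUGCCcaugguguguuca

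Levels were compared first. Dlk1 RNA followed the sort by Dlk1 protein, and the 3 maternal RNAs had higher mean levels in Dlk1+ libraries without passing the test. Dlk1, whose protein defined the sort, was measured at 405, 625, 358 and 640 CPM in Dlk1+ replicates 1 to 4 and at 3.86, 47.8, 12.6 and 50.3 CPM in Dlk1- replicates 1 to 4. The 2 sets of libraries did not overlap, and Dlk1 was the highest of the 4 members in every Dlk1+ library. The fitted difference was 4.80 on the log2 scale (SE 0.47, limma-voom adjusted p = 8.00e-06). This difference checks the labels and is not a finding, since the gate used the product of the same gene.

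Meg3 was measured at 271, 176, 205 and 622 CPM in the Dlk1+ replicates and at 83.1, 134.6, 42.1 and 237 CPM in the Dlk1- ones. The sorts overlapped only through Dlk1- replicate 4, which lay above Dlk1+ replicates 2 and 3. Replicate 4 was the highest library of each sort. The log2 difference was 1.56 (SE 0.41, 95% interval 0.72 to 2.41, limma-voom adjusted p = 0.449 over 5668 genes), and Meg3 ranked 12 by p. The direction was the same in all 19 settings of the fit tried, with an adjusted p between 0.153 and 0.954.

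Rian was measured at 35.4, 48.8, 0 and 39.4 CPM in Dlk1+ replicates 1 to 4 and at 5.80, 13.0, 12.6 and 23.1 CPM in Dlk1- replicates 1 to 4. In Dlk1+ replicate 3 its 0 UMIs allow up to 76.8 CPM, more than any library showed, so its absence there says nothing about the level. The other 3 Dlk1+ libraries lay above all 4 Dlk1- libraries. The log2 difference was 1.45 (SE 0.45, limma-voom adjusted p = 0.548). Mirg was measured at 5.06, 39.0, 0 and 13.1 CPM in the Dlk1+ replicates and at 3.86, 4.34, 4.21 and 10.5 CPM in the Dlk1- ones, and the sorts overlapped. Its mean in the Dlk1+ sort rested mostly on replicate 2, where 4 UMIs stand behind the value. The log2 difference was 0.94 (SE 0.56, limma-voom adjusted p = 0.820). Rian rested on 37 UMIs in Dlk1+ and 23 in Dlk1- cells, and Mirg on 12 and 10.

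Of the 4 members, 1 passed the test, Dlk1, against 0.0353% of all genes tested (2 of 5668, the other being Timp3, a metalloproteinase inhibitor). Likewise only Dlk1 of the 4 had every Dlk1+ library above every Dlk1- library, against 1.11% of all genes. The median log2 difference of all genes was -0.03. On simulated data of the same size the test recovered 20.9% of genes changed 2-fold and 95.5% of those changed 4-fold. These shares cover all simulated changed genes and were not computed at the level and spread of Meg3, Rian or Mirg. The missing calls for Meg3, Rian and Mirg therefore set no limit on their changes, near 2-fold or near 4-fold. Summed stromal markers were also higher in Dlk1+ (32.8 to 117 CPM) than in Dlk1- libraries (17.4 to 34.7 CPM, exact two-sided permutation p = 0.0571), and their part in the Meg3 difference was not tested. Within libraries, cells with a Meg3 UMI held a higher level of stromal markers than cells without in 4 of 8 and a lower one in the other 4 (exact two-sided sign-flip permutation p = 0.406). A stromal marker was seen in 14 of 117 Dlk1+ cells with Meg3 and 15 of 103 without. In Dlk1- cells it was seen in 9 of 70 and 24 of 251. This split rests on few cells and is no test of that part.

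**Figure D1:**
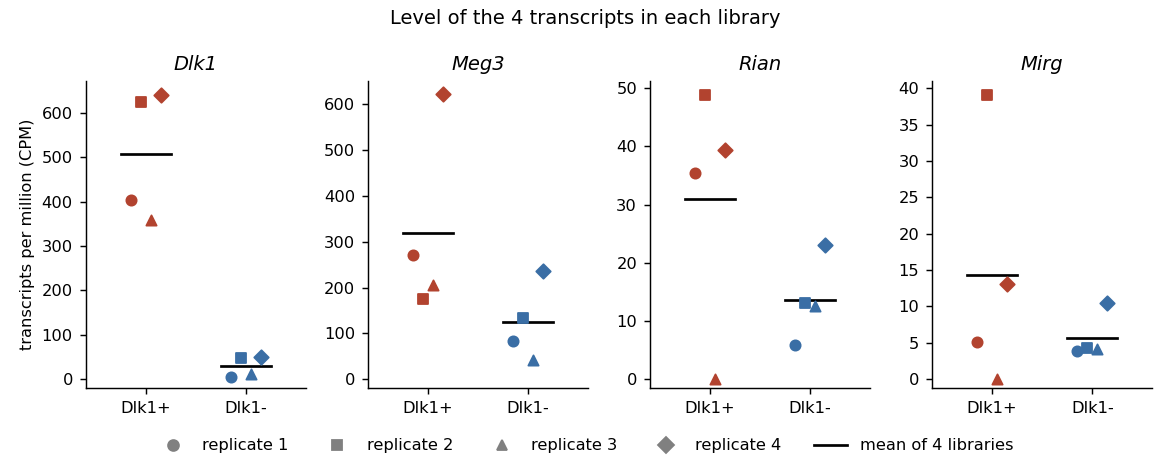
Level of Dlk1, Meg3, Rian and Mirg (vertical axes, CPM, a separate scale for each gene) in the 4 Dlk1+ and 4 Dlk1- libraries. Symbols are replicates and bars are means of 4 libraries. Dlk1 separates the sorts (358 to 640 against 3.86 to 50.3 CPM), while the ranges of Meg3, Rian and Mirg overlap.

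The order of the levels differed between the sorts. Since each UMI counts 1 molecule from its 3′ end, CPM compare genes without a correction for length. In Dlk1+ cells the order of mean levels was Dlk1 (507 ± 146 CPM, SD, n = 4), Meg3 (318 ± 206), Rian (30.9 ± 21.3) and Mirg (14.3 ± 17.3). Dlk1 was above Meg3 in 4 of 4 Dlk1+ libraries, although their ranges overlapped, and both lay clear of Rian and Mirg, which overlapped each other. In Dlk1- cells the order was Meg3 (124 ± 84.2 CPM, SD, n = 4), Dlk1 (28.6 ± 23.9), Rian (13.6 ± 7.11) and Mirg (5.72 ± 3.18). Meg3 was above Dlk1 in 4 of 4 Dlk1- libraries, and above Rian and Mirg with no overlap. Dlk1, Rian and Mirg overlapped there.

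The mean share of cells with a UMI was higher in the Dlk1+ libraries for each member, and the difference passed the test for Dlk1. Depth differs between libraries, so shares were computed for a draw of 2000 UMIs from each cell, which left out 30 Dlk1+ cells (22 of them in replicate 3) and 14 Dlk1- cells. Dlk1 was then found in 51.3%, 66.6%, 23.4% and 62.9% of cells in Dlk1+ replicates 1 to 4 and in 0.580%, 5.31%, 2.49% and 7.22% in Dlk1- replicates 1 to 4 (exact two-sided permutation p = 0.0286, the smallest that 70 assignments allow). Dlk1+ replicate 3, with 4 cells at that depth, was the lowest of its sort. Meg3 was found in 38.1%, 26.8%, 24.9% and 54.2% of Dlk1+ and in 12.2%, 19.9%, 6.78% and 25.6% of Dlk1- cells (exact two-sided permutation p = 0.0571). Dlk1- replicate 4 lay within the Dlk1+ range, and the other 3 Dlk1- libraries lay below it. Without Dlk1+ replicate 3 the Meg3 difference had p = 0.0286 in the same exact permutation test, and without any other single library p was 0.0571 to 0.143. Rian was found in 7.57%, 8.23%, 0% and 7.50% of Dlk1+ and in 1.58%, 3.26%, 2.73% and 4.39% of Dlk1- cells (exact two-sided permutation p = 0.2), and the same exact test gave p = 0.0286 without the shallow Dlk1+ replicate 3 and 0.2 to 0.4 without any other single library. Mirg was found in 0.660%, 8.61%, 0% and 3.12% of Dlk1+ and in 0.672%, 1.53%, 0.724% and 1.82% of Dlk1- cells (exact two-sided permutation p = 0.514).

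With all UMIs and libraries pooled, Dlk1 was found in 153 of 220 Dlk1+ cells (69.5%) and 18 of 321 Dlk1- cells (5.61%), and Meg3 in 117 (53.2%) and 70 (21.8%). Rian was found in 29 Dlk1+ and 19 Dlk1- cells, and Mirg in 11 and 8. At least 1 of the 4 transcripts was seen in 182 Dlk1+ cells and 88 Dlk1- cells. The background was read from 728 barcodes to which no cell was sorted, outside the 10 left out, with a median of 33 UMIs each. Of these, 2 held a Dlk1 UMI and 2 a Meg3 UMI (0.275% each), and none held Rian or Mirg (0 of 728 allows up to 0.412%). The pooled shares of Dlk1, Meg3, Rian and Mirg in Dlk1- cells, the last at 2.49%, were above these background shares. The cells were far deeper, with library medians of 4726 to 5584 transcripts. The shares therefore do not show a level above background per UMI. The limit given for 0 covers counting error only.

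The number of Meg3 UMIs per positive cell overlapped between the sorts, while positive cells themselves were more frequent in most Dlk1+ libraries. The mean per positive cell was 2.33, 2.00, 1.14 and 5.16 UMIs in Dlk1+ replicates 1 to 4 and 2.15, 2.82, 2.00 and 3.9 in Dlk1- replicates 1 to 4. Replicate 4 was the highest in both sorts and the shallow Dlk1+ replicate 3 the lowest. The sort means were 2.66 ± 1.74 and 2.72 ± 0.86 (SD, n = 4; exact two-sided permutation p = 0.971), with a sign that depended on the library left out. The difference was smaller than the spread between libraries of either sort. UMIs per positive cell were not adjusted for depth, and the mean of the library median transcripts was 3397 in Dlk1+ and 5057 in Dlk1- libraries. Similar UMI numbers are therefore not similar shares of a cell's transcripts. Dlk1 had 2.71, 2.91, 1.56 and 4.63 UMIs per positive cell in Dlk1+ replicates 1 to 4, and 1.5 and 2.4 in those Dlk1- libraries with at least 3 positive cells, replicates 3 and 4 (exact two-sided permutation p = 0.333, 15 assignments). Rian had between 1.00 and 1.67 UMIs per positive cell in every library where it was found, and Mirg likewise.

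Dlk1 and Meg3 were unevenly spread over cells, while Rian and Mirg were mostly single UMIs. Among Meg3-positive cells, 35.0% in Dlk1+ and 31.4% in Dlk1- held 1 UMI, and 35.9% and 31.4% held 4 or more. The most in any cell was 19 UMIs for Dlk1 and 19 for Meg3, both in Dlk1+ replicate 4. Of Rian-positive cells 79.2% held 1 UMI, and of Mirg-positive cells 84.2%. Spread beyond counting was measured as the mean squared deviation from each cell's share of its library's UMIs, divided by its expectation under random counting, which gives 1 for pure counting noise. Meg3 scored 3.62 in Dlk1+ and 3.49 in Dlk1- cells, and Dlk1 3.54 and 2.96. The medians over genes with at least 20 UMIs were 1.05 and 1.09. Meg3 ranked 60 of 6254 such genes in Dlk1+ and 50 of 8266 in Dlk1- cells, and Dlk1 64 and 59. Rian scored 1.32 and 1.28, within the upper 14.7% and 17.6% of these genes. For the same relative spread this score grows with level, and genes were not matched for level. The part of level in these ranks and in the gap to Rian was not tested. Random counting at the same level would have put the 207 Meg3 UMIs of the Dlk1- sort in 134 cells, and 70 held them. The 33 Dlk1- cells with the most Meg3, 1 in 10 of the sort, carried 74.9% of its Meg3 UMIs.

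**Figure D2:**
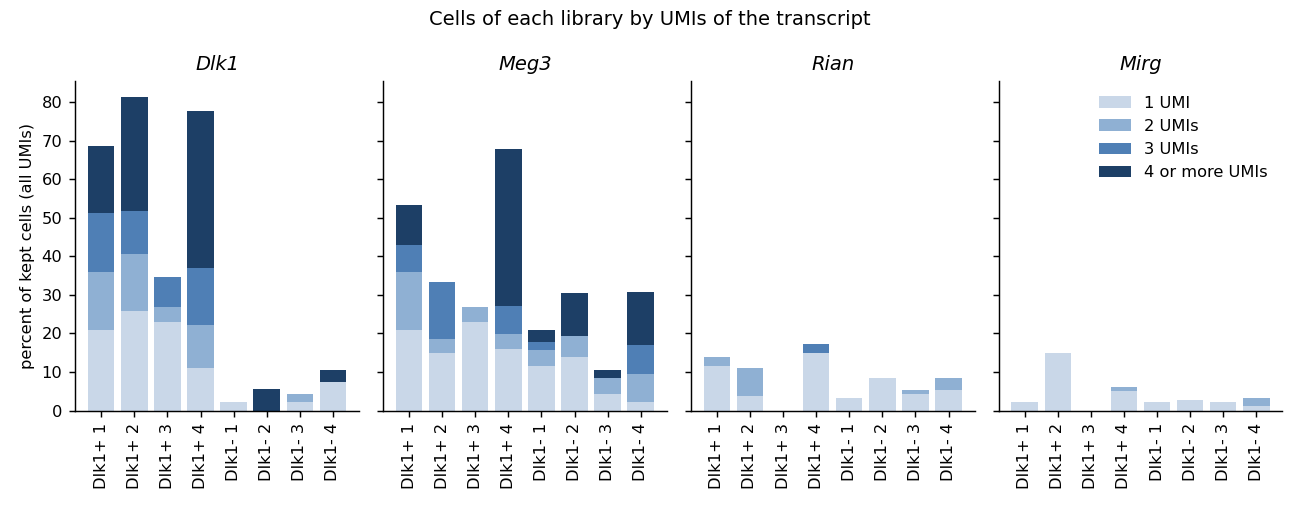
Percent of kept cells (vertical axis, all UMIs, not thinned) with 1, 2, 3 and 4 or more UMIs of each transcript, stacked, for each library (horizontal axis). Cells with 4 or more Meg3 UMIs occur in both sorts, 42 in Dlk1+ and 22 in Dlk1- libraries, whereas Rian and Mirg bars consist mostly of cells with 1 UMI.

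Dlk1 RNA in the Dlk1- sort was concentrated in a small number of cells. Of 321 Dlk1- cells, 5 (1.56%) had 4 or more Dlk1 UMIs, a limit chosen after the values were seen, against 56 of 220 Dlk1+ cells (25.5%). These 5 cells, with 7 and 4 UMIs in Dlk1- replicate 2 and 8, 5 and 4 in replicate 4, carried 28 of the 43 Dlk1 UMIs of the sort. Meg3 was found in 4 of the 5, at 3 to 5 UMIs, and Rian in 2 of the 5. Their depth, 3439 to 6600 UMIs, lay around the medians of their libraries (5521 and 4969). Of the 18 Dlk1-positive cells of the Dlk1- sort, 11 held a single Dlk1 UMI.

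**Figure D3:**
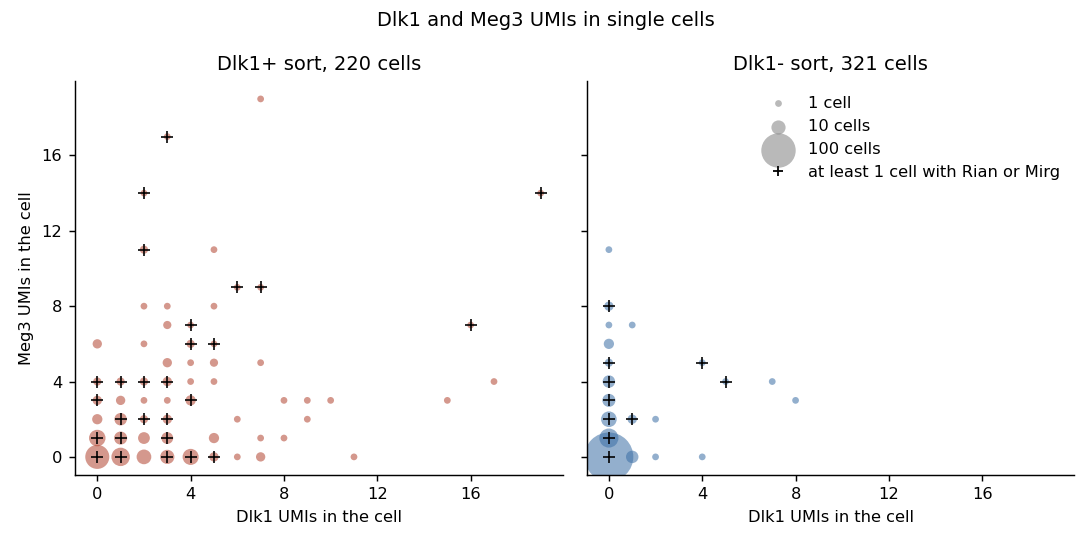
Dlk1 UMIs (horizontal axis) and Meg3 UMIs (vertical axis) in each of 220 Dlk1+ and 321 Dlk1- cells. Disc area grows with the number of cells at a point, and crosses mark points with at least 1 cell that held Rian or Mirg. Most Dlk1- cells lie at 0 for both, many hold Meg3 without Dlk1, and 5 hold 4 or more Dlk1 UMIs.

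Meg3 and the other maternal RNAs were found in the same cells more often than independence would give. For each pair of members, cells with both were counted and compared with the number expected if the 2 were independent within each library and each of 3 depth classes. Over the 7 libraries that held both, Meg3 and Rian were found together in 35 cells against 21.5 expected, with a Mantel-Haenszel odds ratio over library and depth class of 4.79. The excess was 1.72%, 3.70% and 4.62% of cells in Dlk1+ replicates 1, 2 and 4 and -0.55%, 3.24%, 2.56% and 4.44% in Dlk1- replicates 1 to 4. It was positive in 6 of 7 libraries, and Dlk1- replicate 1, with 3 Rian-positive cells, was the exception (exact two-sided sign-flip permutation p = 0.0312, 0.0625 adjusted over 6 pairs). Meg3 and Mirg were found together in 15 cells against 7.89 expected (odds ratio 8.06). Here the excess was 1.08%, 2.47% and 2.01% of cells in the same Dlk1+ replicates and 1.6%, 1.85%, 0.787% and 0.995% in the Dlk1- ones, positive in 7 of 7 (exact two-sided sign-flip permutation p = 0.0156, the smallest that 7 libraries allow, 0.0469 adjusted over 6 pairs). So the pair Meg3 and Mirg passed after adjustment and Meg3 and Rian did not. Mirg-positive cells numbered 2, 4 and 5 in Dlk1+ replicates 1, 2 and 4 and 2, 1, 2 and 3 in Dlk1- replicates 1 to 4. Each sign for Meg3 and Mirg thus rests on few cells. In a draw of 2000 UMIs without depth classes the 2 pairs did not differ in this test. Each was then positive in 6 of 7 libraries (exact two-sided sign-flip permutation p = 0.0312, unadjusted).

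Of the 48 Rian-positive cells 72.9% held Meg3, against 30.8% of cells without Rian, and of the 19 Mirg-positive cells 78.9%, against 33.0%. The median depths of Rian-positive and Rian-negative cells were 4926 and 4528 UMIs over both sorts. They were 4533 and 3783 in Dlk1+ cells and 4999 and 4851 in Dlk1- cells. With all libraries pooled, the share of cells with Rian was higher at more Meg3: 3.67% of 354 cells without Meg3, 12.7% of 63 with 1 UMI, 15% of 60 with 2 or 3, and 28.1% of 64 with 4 or more. Mirg had 1.13%, 6.35%, 6.67% and 10.9% in the same classes. The median depth of these classes was 4567, 4305, 4466 and 4904 UMIs over both sorts. It was 3524, 3583, 4330 and 5052 in Dlk1+ cells and 4833, 5115, 4779 and 4869.5 in Dlk1- cells. Depth thus rose with the Meg3 class in Dlk1+ cells, and its part in the rise of Rian there was not tested. In the Dlk1+ sort Rian was in 5.83%, 12.2%, 11.8% and 33.3% of these classes, and in the Dlk1- sort in 2.79%, 13.6%, 19.2% and 18.2%, so the gap between cells without Meg3 and cells with it appeared in each sort. The Dlk1- classes with Meg3 held 3, 5 and 4 Rian-positive cells. Of 42 Dlk1+ cells with 4 or more Meg3 UMIs, 33 were in replicate 4 and 9 in replicate 1. Of the 22 such Dlk1- cells, 13 were in replicate 4. The part of single libraries in the rise was not tested. Rian and Mirg themselves were found together in 6 cells against 2.18 expected, 4 of them in Dlk1+ replicate 4 (exact two-sided sign-flip permutation p = 0.562), and without that library the mean excess was -0.07% of cells.

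Dlk1 was found with Meg3 more often than expected, at a lower odds ratio than Meg3 had with Rian or Mirg. Over both sorts together, Dlk1 was found with Rian at the expected number. Dlk1 and Meg3 shared 99 cells against 88.4 expected (odds ratio 2.17). The excess was 1.5%, 2.47%, 11.8% and 1.51% of cells in Dlk1+ replicates 1 to 4 and -0.59%, 0.926%, 0.654% and 4.19% in Dlk1- replicates 1 to 4. It was positive in 7 of 8 libraries (exact two-sided sign-flip permutation p = 0.0156, 0.0469 adjusted over 6 pairs), and the highest value belonged to the shallow Dlk1+ replicate 3, where 5 of 26 cells held both. The mean excess was 2.80% of cells with that library and 1.52% without it (p = 0.0312 in the same exact test). Dlk1 and Rian shared 23 cells against 22.9 expected (odds ratio 1.02, exact two-sided sign-flip permutation p = 0.531), below expectation or at it in 6 of 7 libraries. This total joins unlike sorts: 20 cells against 21.8 expected in Dlk1+ (odds ratio 0.691) and 3 against 1.08 in Dlk1- (odds ratio 4.23). The 3 were all in Dlk1- replicate 4. In Dlk1- replicates 1 to 3 the expected numbers for Dlk1 and Rian were only 0, 0.0833 and 0.19 cells. Their signs at or below 0 therefore carry little information. Dlk1 and Mirg shared 11 cells against 9.07 expected (odds ratio 2.73, exact two-sided sign-flip permutation p = 0.297). No pair's excess differed between the sorts beyond the spread between libraries (exact two-sided permutation p from 0.0857 to 0.6). The size an excess can reach depends on how many cells hold each transcript, which for Dlk1 differed strongly between the sorts. Odds ratios were not tested between the sorts. Meg3 and Rian exceeded expectation by 3.35% of cells in Dlk1+ and 2.42% in Dlk1- libraries, and Dlk1 and Meg3 by 4.31% and 1.30%. In Dlk1+ cells 4 cells held all 4 transcripts, and in Dlk1- cells none of 321 did, which allows up to 0.935%.

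**Figure D4:**
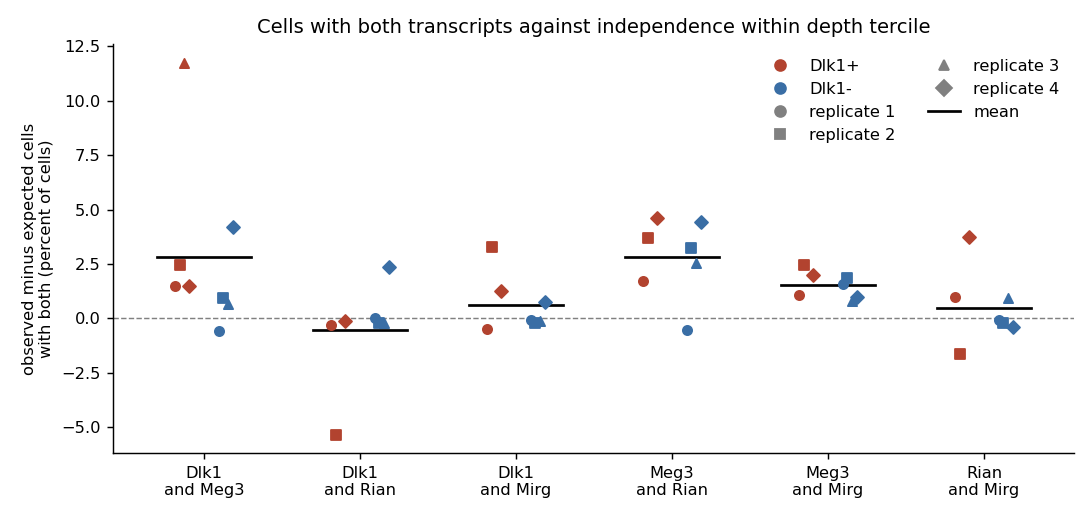
Observed minus expected cells with both transcripts, in percent of the library's cells (vertical axis), for the 6 pairs of members (horizontal axis). Each symbol is 1 library, coloured by sort, and bars are means over libraries. Meg3 with Mirg lies above 0 in 7 of 7 libraries and Meg3 with Rian in 6 of 7, while Dlk1 with Rian lies at or below 0 in 6 of 7. For Dlk1 with Rian the expected numbers in Dlk1- replicates 1 to 3 were 0, 0.0833 and 0.19 cells, so those signs carry little information.

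The summed Meg3 level was also higher beside Dlk1. This level includes cells without Meg3, so the more frequent detection raises it and it is not a separate result. The level among Meg3-positive cells alone was not compared. In Dlk1+ replicates 1 to 4, cells with a Dlk1 UMI held 334, 203, 466 and 785 CPM of Meg3 and cells without held 202, 116, 78.1 and 231. All 4 Dlk1+ libraries went the same way. In Dlk1- replicates 1 to 4 the values were 0, 390, 106 and 525 with Dlk1 and 89.2, 129, 40.7 and 208 without, where Dlk1-positive cells number 2, 2, 4 and 10. Over all 8 libraries the difference was positive in 7 (exact two-sided sign-flip permutation p = 0.0312), and leaving out any of 5 single libraries gave p = 0.0625. This comparison was chosen after the values were seen. As a description, the rank correlation of Dlk1 and Meg3 UMIs per total across cells within a library ran from -0.07 (Dlk1- replicate 1, 96 cells) to 0.48 (Dlk1+ replicate 3, 26 cells), and that of Meg3 and Rian from -0.09 to 0.38. All of a library's cells share its preparation.

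To place the members among other genes, odds ratios of co-detection with Meg3 were computed for the 8303 genes found in at least 5% of cells with a defined ratio. The 5 highest ratios were infinite and belonged to mitochondrial RNAs found in 99.4% to 99.8% of cells (mt-Co2, mt-Nd1, mt-Nd2, mt-Nd5 and mt-Rnr1), where a ratio carries no information. Among the 8251 genes found in 5% to 95% of cells, a limit set after the values were seen, the median ratio was 0.949 and the 95th percentile 1.61. The 5 highest were Arhgap35 (5.01), Rian (4.79), Rubcn (4.19), Rpl12 (3.55) and Ppia (3.19). Mirg, found in 3.51% of cells and so outside the range, had a higher ratio than all of them, and Dlk1 ranked 56. Arhgap35 was in 30 cells, 20 of them with Meg3 against 11.6 expected, so that ratio rests on few cells, as do those of Rian and Mirg. Rpl12 and Ppia were in 93.0% and 93.7% of cells and shared 181 and 182 with Meg3 against 176.5 and 177.4 expected.

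For Dlk1 the highest ratios in the first set were likewise infinite and are not listed. In the range of 5% to 95% of cells the 5 highest ratios for Dlk1 were Rpl32 (9.22), Ly6e (8.81), Cpeb4 (7.19), Tfcp2 (6.91) and B2m (6.74), with a median of 0.986 and a 95th percentile of 2.02. Rpl32, Ly6e and B2m were in 94.3%, 90.8% and 94.6% of cells. They shared 168, 167 and 167 cells with Dlk1 against 162.5, 159.5 and 163.3 expected. Cpeb4 and Tfcp2 shared 13 and 16 against 7.86 and 11.5. These 5 ratios thus rest on small differences in cell number. Meg3 ranked 303 and Rian 3843 of 8251, and Mirg, outside the range, would have ranked 131. Over both sorts together, Rian was thus near the median for Dlk1 and near the top for Meg3.

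**Figure D5:**
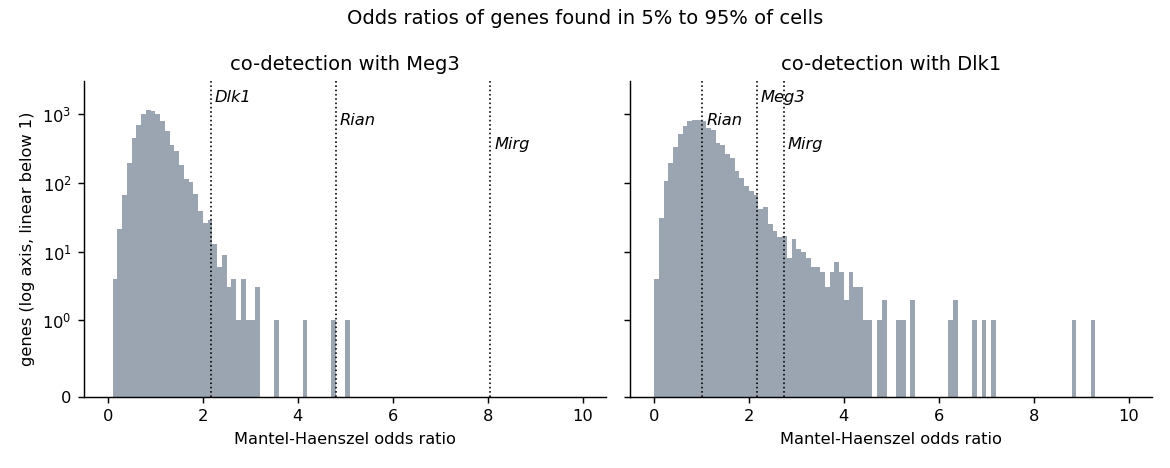
Number of genes (vertical axis, logarithmic above 1) by Mantel-Haenszel odds ratio of co-detection (horizontal axis) with Meg3 and with Dlk1, for 8251 genes found in 5% to 95% of cells. Dotted lines mark the other members. With Meg3, Rian (4.79) and Mirg (8.06) lie in or beyond the upper tail, whereas with Dlk1, Rian (1.02) lies in the middle.

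No gene of the 6 lists related to the domain by position or function passed the test between the sorts. Of all genes tested, 0.0353% passed (2 of 5668). With so few calls, 0 in a list says nothing particular about its genes. Of the genes near the domain 10 of 17 had UMIs and 5 could be tested, with 0 past the threshold (limma-voom, median log2 difference 0.39 against -0.03 for all genes). The highest were Hsp90aa1, a cytosolic chaperone (1081 ± 396 CPM in Dlk1+ and 741 ± 115 in Dlk1-, SD, n = 4), and Dynein heavy chain Dync1h1 (188 ± 125 and 103 ± 37.4 CPM). Of the imprinted genes elsewhere in the genome 9 were tested and 0 passed (median -0.01). The paternally expressed non-coding RNA Kcnq1ot1 had 496 ± 146 and 564 ± 151 CPM, and Gnas, a G protein subunit, 455 ± 220 and 507 ± 46.5 CPM. The growth-related imprinted transcripts Igf2 and H19, which were too low to test, were chosen after their values were seen and had 16.8 ± 15.3 and 14.6 ± 24.5 CPM in Dlk1+ and 5.61 ± 3.84 and 2.06 ± 2.97 CPM in Dlk1- libraries.

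Among 16 tested genes for imprint maintenance and chromatin at the domain, 0 passed (median 0.18). Trim28, the corepressor that holds imprints, had 519 ± 426 and 306 ± 76.5 CPM, and the chromatin remodeller Atrx 252 ± 48.0 and 248 ± 54.1 CPM. In the Notch pathway 9 genes were tested and 0 passed (median -0.15). Psenen, a γ-secretase subunit, had 162 ± 51.8 and 103 ± 19.9 CPM, and Adam10, a sheddase of Notch receptors, 72.7 ± 51.9 and 130 ± 24.9 CPM. Of 5 nuclear non-coding RNAs tested 0 passed (median 0.01): Malat1 had 5045 ± 1458 and 4013 ± 1409 CPM. Among 4 genes of nuclear RNA processing 0 passed (median -0.12), where the exonuclease Xrn2 had 66.5 ± 32.9 and 88.1 ± 7.34 CPM and Dicer1, which cuts microRNA precursors, 57.8 ± 32.3 and 37.1 ± 10.1 CPM. Across all 5668 genes tested 2 passed, and 367 had an unadjusted limma-voom p under 0.05.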

How the data were processed

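The deposited values are estimated transcript counts that the authors corrected for UMI collisions, 1 table per library, with a column per well barcode and no scaling for depth. Inverting the correction for 4096 possible UMIs gave whole UMI counts for every value within 1e-06. Alignment used BWA 0.6.2-r126 to mm10, per the submitters' processing notes. The counting tool, annotation and read filters are not given in the sources used here. No doublet caller was run.

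The deposited estimated counts were summed over kept cells per library, rounded, scaled by trimmed means and tested with limma-voom (limma 3.58.1, R 4.3.3), group as the only term, on genes with a CPM of at least that of 10 counts at the median library size in 4 libraries and a total of at least 15, plus the 4 members. P-values were adjusted by Benjamini-Hochberg at 0.05. The planned edgeR and DESeq2 fits were not run, since the estimated counts, in tab-separated tables headed by numbers, could not be read by the unit check. Simulated data tested the fit and the odds ratios. Thinning was computed exactly from the recovered UMI counts, with no random draw. Wilson intervals and limits of 0 (3 counts) use 95% confidence and cover counting error only. Python 3.11.15, scipy 1.17.1 and matplotlib 3.10.9 were used, with RefSeq GRCm38.p6 for sequences, where all 4 members matched by symbol.

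Replicate numbers were checked for pairing: over 2208 genes the deviations of same-numbered libraries correlated at 0.046, 0.046, 0.084 and 0.135, so not all were over 0.1 and no block was used. Plates 5 and 6, as the table names give them, hold replicates 1 and 2 and replicates 3 and 4 of both sorts. Within plates the Meg3 share of cells at 2000 UMIs was higher in Dlk1+ by 16.4 and 23.3 percentage points, that of Dlk1 by 56.0 and 38.3, that of Rian by 5.48 and 0.189 and that of Mirg by 3.53 and 0.285.

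The members and gene lists were chosen with earlier results of these data known. Named were the 4 members, of each list the genes past the threshold or else the 2 with the highest mean CPM, and the 5 genes with the highest odds ratio for Meg3 and Dlk1. Alternatives changed the scaling, filters, barcodes, depth and libraries. The genes with the highest odds ratios for Dlk1 without an upper limit on detection are not reported here.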

Additional observations from a re-analysis of the deposited data

Results flagged for a closer look

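In groups of 4 libraries a value is listed here when its gap to the nearest other library exceeds Dixon's 95% critical value for the group's range; of 22 groups examined 3 were listed, and chance gives about 1 in 20. The Rian share at 2000 UMIs in Dlk1+ replicate 3 was 0% beside 7.50% to 8.23% in the other 3, and it rests on 4 cells. Mirg in Dlk1- replicate 4 was 10.5 CPM beside 3.86 to 4.34, and 1.67 UMIs per positive cell beside 1.00 in the others, on 3 positive cells.

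Member UMIs also lay outside the kept cells. Barcodes 17 and 20 of the Dlk1- libraries, to which no Dlk1- cell was sorted, held 18 Dlk1, 5 Meg3, 2 Rian and 2 Mirg UMIs, whereas the remaining 8 left-out barcodes held 0 of each. In Dlk1+ replicate 3 the 60 sorted wells under 1000 transcripts held 27 Dlk1 and 12 Meg3 UMIs among 39254 UMIs, more than the 14 and 8 in its 26 kept cells.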

How the results depend on the processing

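All 4 members kept a positive log2 difference in every fit, Dlk1 passed in each and no other did. Leaving out 1 library gave 4.03 to 5.46 for Dlk1, 1.10 to 1.92 for Meg3, 1.07 to 1.79 for Rian and 0.66 to 1.23 for Mirg. Genes called were 1 to 14 (14 without Dlk1+ replicate 4, 5 of them higher; 1 without Dlk1+ replicate 2 and 1 without Dlk1- replicate 3), 1 at a minimum of 2000 transcripts, 4 with the 10 barcodes and 1 with the replicate block (Dlk1 4.32). Each Dlk1+ library correlated best with its own number, a hint from the data, not the design. The Dlk1 share difference of 47.2 points over same-numbered pairs, a block with a smallest p of 0.125, did not pass. No filter moved the median of all genes to 0.24. Without 1 library the share difference was 42 to 56.4 points for Dlk1 (p = 0.0571 without any 1 Dlk1- library, exact permutation), 13.8 to 23.5 for Meg3, 2.03 to 4.78 for Rian and 0.0721 to 2.94 for Mirg. Meg3 UMIs per positive cell differed by -0.89 to 0.447 (0.0526, 0.161 and 0.447 without Dlk1+ replicates 1, 2 and 3, 0.335 without Dlk1- replicate 4) and by 0.483 at a minimum of 2000 transcripts. For Dlk1 the range was 0.442 to 1.47 and for Rian 0.0824 to 0.332. The mean excess ranged from 2.52% to 3.38% of cells for Meg3 and Rian (exact sign-flip p = 0.0625 without any 1 of 6 libraries: 3.00, 2.67 and 2.52 without Dlk1+ replicates 1, 2 and 4, 2.75, 2.86 and 2.55 without Dlk1- replicates 2, 3 and 4), 1.39 to 1.67 for Meg3 and Mirg, 1.52 to 3.29 for Dlk1 and Meg3, -1.04 to 0.245 for Dlk1 and Rian (positive without Dlk1+ replicate 2), 0.182 to 0.814 for Dlk1 and Mirg and -0.067 to 0.832 for Rian and Mirg (negative without Dlk1+ replicate 4). Sort differences in excess reversed without Dlk1- replicate 1 for Meg3 and Rian (-0.066, up to 1.74) and without Dlk1+ replicate 4 for Rian and Mirg (-0.386, up to 2.31). Leaving out very deep cells, added after the values were seen for the levels, changed no call there, but the cycling difference for Meg3 then had an exact sign-flip p = 0.0547. Why these values moved was not tested. The edgeR and DESeq2 fits were not run. In the shallow Dlk1+ replicate 3 only 4 cells reached 2000 UMIs, which limits its shares.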

Other observations

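Shares of cells with a member were also counted in cells rich in mitotic transcripts, with no test of the shares. The 6 cycling markers (Mki67, Top2a, Ccnb1, Cdk1, Cenpf and Birc5) summed to at least 5 UMIs, a limit set after the values were seen, in 14 Dlk1+ and 18 Dlk1- cells. Dlk1 was found in 3 of the 14 (21.4%) against 150 of the 206 other Dlk1+ cells (72.8%), and Meg3 in 5 (35.7%) against 112 (54.4%). Rian was found in 2 (14.3%) against 27 (13.1%), and Mirg in 0 against 11 (5.34%). In the Dlk1- sort 0 of 18 held any of the 4 transcripts, against 70 of 303 with Meg3 (23.1%), 18 with Dlk1, 19 with Rian and 8 with Mirg. These cells were deeper than the rest (median 9014 against 4466 UMIs), and the part of depth in these shares was not tested. Per library, CPM of cycling markers were lower in cells with Dlk1 than in cells without in 8 of 8 libraries (for example 277 against 539 in Dlk1+ replicate 1 and 61.5 against 1134 in replicate 4; exact two-sided sign-flip permutation p = 0.0078, the smallest possible). Cells with Dlk1 numbered only 2, 2, 4 and 10 in Dlk1- replicates 1 to 4, and cells without it only 5 in Dlk1+ replicate 2. The value of 0 in Dlk1- replicates 1 and 2 thus rests on 2 cells each. For Meg3 the cycling markers were lower in 7 of 8, Dlk1+ replicate 4 being the exception (383 against 320; exact two-sided sign-flip permutation p = 0.0234). Both comparisons were added after the values were seen.

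The same split was made for 10 marker lists and both genes, 20 comparisons, and no comparison passed after adjustment over them (lowest adjusted p = 0.117). HSC markers were higher in Dlk1-positive cells in 7 of 8 libraries (exact two-sided sign-flip permutation p = 0.0156) and stromal markers lower in 7 of 8 (p = 0.0234 in the same exact test). Myeloid markers in Dlk1+ replicate 4 lay mostly in 1 cell, with 1958 of the library's 2156 UMIs of that list and none of the 4 members.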
